A study of Homo sapiens with 12 samples.

Results

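The aryl hydrocarbon receptor pathway was followed through lapatinib tolerance and resistance in BT474 cells by the mRNA levels of 8 genes: the receptor AHR, its dimer partners ARNT and ARNT2, the repressors AHRR and TIPARP, and the CYP1 enzymes CYP1A1, CYP1A2 and CYP1B1. The rows were found by gene symbol, and all 8 were present among the 26485 genes of the table. The pathway was selected on a value of these data, because CYP1A1 had the largest log2 increase of any gene tested between untreated cells and day 9 persisters. Levels of the 8 genes in that contrast are therefore descriptions without a test, and CYP1A1 was tested only between DTEP and LR. The 8 genes passed the filter on low values. CYP1A2 did so only through the DTP and DTEP libraries, and ARNT2 only through the Control and DTP libraries. CYP1A1 did so through Control, DTP and DTEP, and through no LR library.

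BT474 is a breast carcinoma line with amplified ERBB2, and lapatinib blocks the kinases of HER2 and EGFR. Control cells were taken at day 0, drug-tolerant persisters (DTP) at day 9, drug-tolerant expanding persisters (DTEP) at month 6 and long-term resistant cells (LR) at month 9, with 3 libraries per group. The same 1 µM lapatinib treatment is written for all 12 libraries, including Control, which was read as untreated from its title. The study describes the replicates both as technical and as parallel plates of this single line, so n counts libraries, and SDs and p-values do not cover independent derivations. Each library held 16383363 to 25030482 assigned reads. ERBB2, GATA3, KRT8, KRT18 and EPCAM were expressed in every library, while COL3A1, PDGFRB, PTPRC and PECAM1 had at most 0.217 normalised read counts. COL1A1 had 48.1 to 130 and CD68 had 0.872 to 3.54 normalised read counts, and their part in the results was not tested. DTEP replicate 3 stood apart from its group, with a Pearson's r across genes of 0.934 to 0.962 with the other DTEP libraries and of 0.971 to 0.986 with LR libraries. Some results whose call, direction or size rests on this library are given with and without it, and others only with it.

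AHR is a ligand-activated transcription factor of the bHLH-PAS family that waits in the cytoplasm in a complex with HSP90 and p23. After binding a ligand, such as a polycyclic aromatic hydrocarbon or a tryptophan metabolite, it enters the nucleus, pairs with ARNT and binds xenobiotic response elements (XREs). The CYP1 genes are its best known targets, and their products are monooxygenases that oxidise aromatic hydrocarbons and estrogens. AHRR and TIPARP are also AHR targets, and both proteins dampen the receptor in a feedback loop. Since mRNA was measured in bulk, fewer cells expressing a gene and less RNA per cell cannot be told apart.

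The sequences upstream of 3 of these genes are shown because they carry, or lack, the letters AHR binds. The XRE core GCGTG and its longer form TNGCGTG were searched on both strands, and every longer match contains a core. The same core is also one form of the hypoxia response element. The promoters are from RefSeq on GRCh38.p14, read 5′ to 3′ on the strand of the gene over the 250 bases before its start, with the core in capitals. The CYP1A1 stretch is chr15:74725529-74725778 on the minus strand, that of CYP1A2 is chr15:74748595-74748844 on the plus strand, and that of the first AHRR start is chr5:321464-321713 on the plus strand.
CYP1A1: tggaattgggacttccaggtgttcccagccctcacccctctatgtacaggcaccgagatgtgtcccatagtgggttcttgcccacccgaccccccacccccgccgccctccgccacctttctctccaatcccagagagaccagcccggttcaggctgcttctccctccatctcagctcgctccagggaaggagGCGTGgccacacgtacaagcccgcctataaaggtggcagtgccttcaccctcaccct
CYP1A2: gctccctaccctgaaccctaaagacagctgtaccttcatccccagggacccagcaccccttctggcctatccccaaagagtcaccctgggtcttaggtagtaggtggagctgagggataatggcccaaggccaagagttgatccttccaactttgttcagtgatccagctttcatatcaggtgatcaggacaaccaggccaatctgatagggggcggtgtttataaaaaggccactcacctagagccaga
AHRR: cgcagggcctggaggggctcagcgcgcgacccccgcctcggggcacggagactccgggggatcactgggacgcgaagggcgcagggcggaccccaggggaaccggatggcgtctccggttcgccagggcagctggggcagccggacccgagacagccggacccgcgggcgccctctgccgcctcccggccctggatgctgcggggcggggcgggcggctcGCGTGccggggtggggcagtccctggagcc
The CYP1A1 stretch held 1 core and the AHRR stretch 1, which is also a match to the longer form, while these letters were not found in the CYP1A2 stretch. Of 35116 RefSeq promoter windows of 300 bases, which reach 50 bases past the start, 36.5% held the core and 5.51% the longer form, so a single core is common. In the same windows TIPARP held 2 cores at its first start and none at its later starts. A second AHRR start held 2 cores and no longer match, AHR held 1 core and ARNT none.

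CYP1A1 (chr15:74719542-74725528) and CYP1A2 (chr15:74748845-74756607) lie head to head, and 23316 bases separate their starts. That interval held 34 core matches and 12 matches to the longer form, of which 5 lay within 1500 bases of the CYP1A1 start. The window with the most longer matches was picked after the search, as chr15:74726400-74726699 in hg38. It lies 872 to 1171 bases upstream of CYP1A1 and is printed on the minus strand, with TNGCGTG or its reverse complement in capitals.
CYP1A1 upstream window: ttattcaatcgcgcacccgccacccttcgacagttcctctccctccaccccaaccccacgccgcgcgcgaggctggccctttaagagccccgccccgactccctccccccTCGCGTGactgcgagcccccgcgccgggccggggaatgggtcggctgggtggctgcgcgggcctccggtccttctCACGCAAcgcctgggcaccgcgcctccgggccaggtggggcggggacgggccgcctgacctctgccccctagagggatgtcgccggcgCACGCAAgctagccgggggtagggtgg
It held 3 longer matches and 4 cores. Among the promoter windows of the same length, 5 held as many longer matches, which describes how the window was picked and is no test. No factor binding was measured in these cells.

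**Figure D1:**
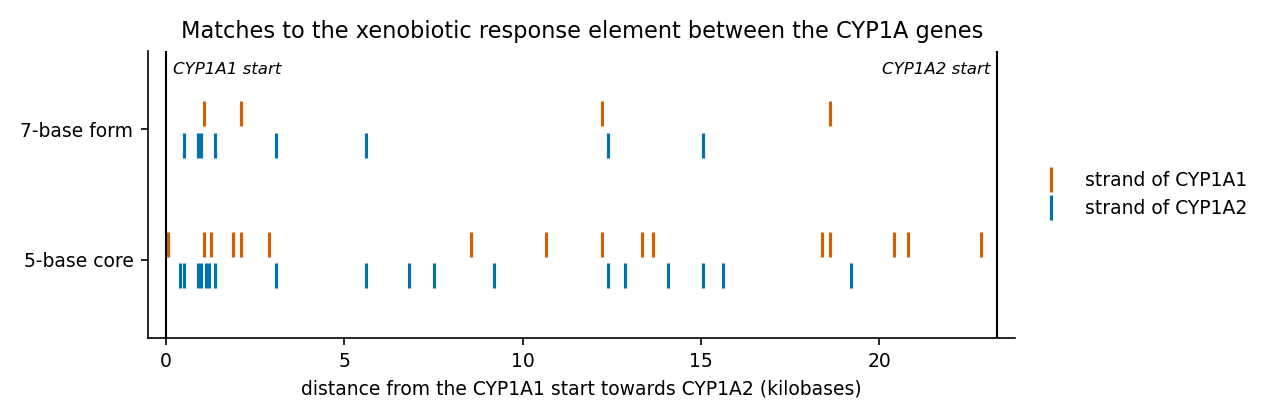
Matches to the XRE core and to its 7-base form between CYP1A1 and CYP1A2, by distance in kilobases from the CYP1A1 start. Each tick is 1 match, coloured by the strand it lies on, and of the 12 matches to the 7-base form 5 are within 1500 bases of the CYP1A1 start.

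Across the 4 groups the 8 genes did not move as one. CYP1A1 and CYP1A2 were highest in DTP and nearly without reads in LR, CYP1B1 was lowest in DTP and highest in DTEP, AHR and ARNT2 were highest in Control, AHRR was low in both late groups and ARNT was high in them. Among the 7 genes other than CYP1A1, 5 passed the adjusted p between DTEP and DTP cells, 2 higher and 3 lower, where 68.2% of all 13794 genes tested passed (limma, adjusted p below 0.05). All 7 passed between DTEP and Control, 3 higher and 4 lower, against 58.2% of all genes. Between LR and Control cells 6 of 7 passed, 2 higher and 4 lower, against 62.8%, and between LR and DTP cells also 6 of 7, against 71.5%. The median log2 change of the 7 genes was -0.67 between LR and Control cells, where that of all genes was -0.03. CYP1A2 is counted here although it passed the filter only through groups where it was high. Of the 6 genes without CYP1A2, 4, 6, 6 and 5 passed in these comparisons, in the order given. ARNT2, which passed the filter only through Control and DTP, is still among the 6. Most genes changed in the late groups, so these counts are no result about the pathway. From DTEP to LR, 1 of 8 genes passed, against 7.35% of all genes, and without DTEP replicate 3 it was 4 of 8, against 47.5%. The 1 gene was CYP1A1, which passed the filter through no LR library.

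**Figure D2:**
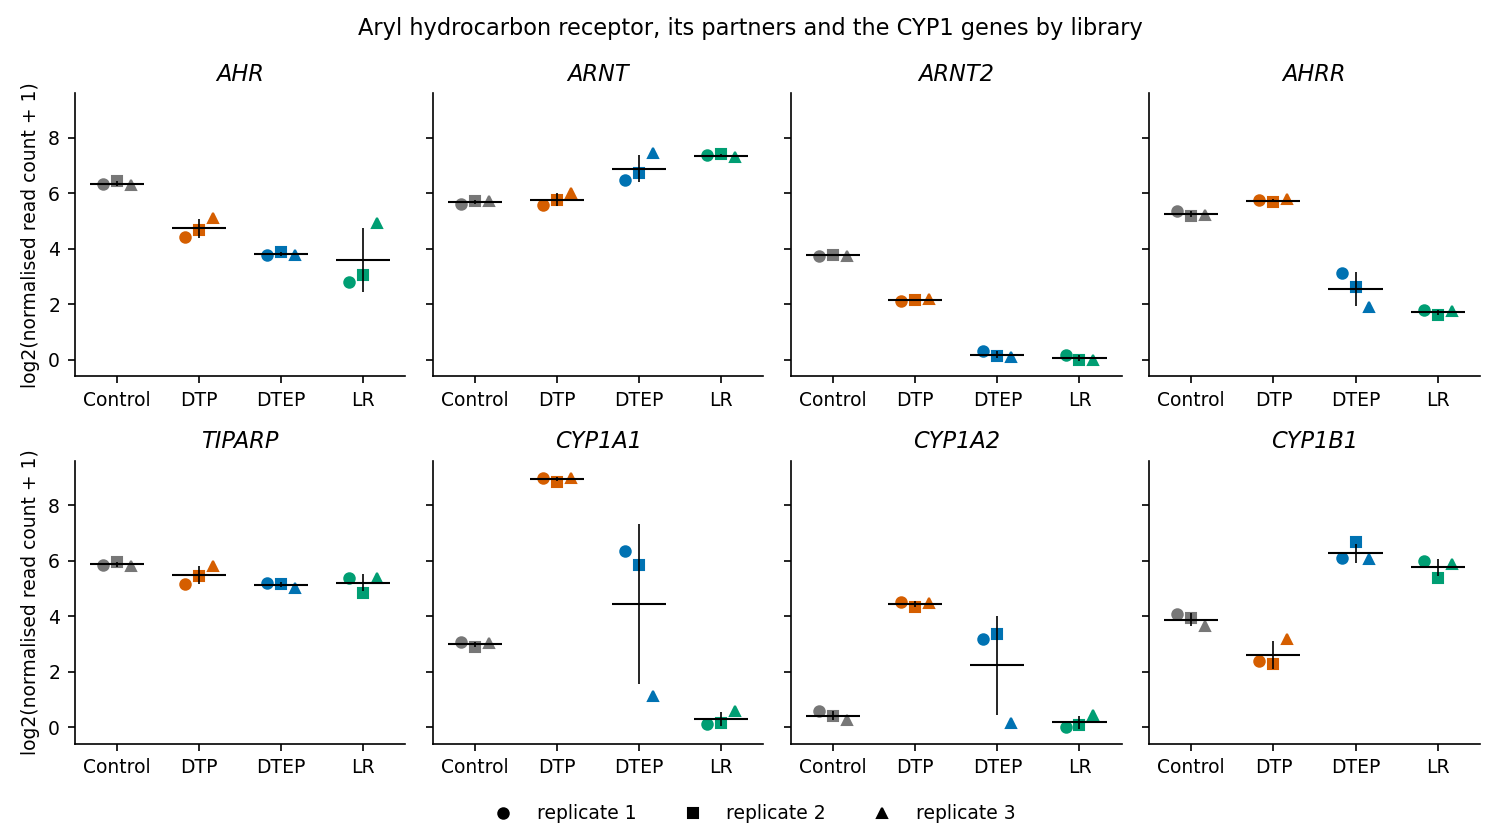
Level of each gene in the 12 libraries as log2(normalised read count + 1). Symbols are replicates, horizontal lines are group means and vertical lines 1 SD (n = 3), and CYP1A1 in DTEP runs from 1.18 to 79.8 normalised read counts between libraries.

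The receptor itself was lower in every treated group. AHR (Entrez 196, chr7:17298652-17346147) had 79.5, 85.7 and 76.7 normalised read counts in Control replicates 1, 2 and 3, and 20.2, 24.4 and 33.6 in DTP. It had 12.7, 13.8 and 12.7 in DTEP and 5.96, 7.19 and 29.1 in LR. Control lay above every other library, the DTP and DTEP libraries did not overlap, and LR replicate 3 stood within the DTP range while the other LR libraries were the lowest of all. AHR fell from Control to DTEP by 2.53 on the log2 scale (SE 0.42, limma adjusted p 0.000270) and from Control to LR by 2.77 (SE 0.42, adjusted p 0.000119), or by 3.43 without LR replicate 3. The group means of Control were 6.16 and 5.73 times those of DTEP and LR. Between DTP and DTEP the log2 change was -0.91 (limma adjusted p 0.0729), which missed the threshold but passed under 5 of 22 alternatives. Between LR and DTP it was -1.15 (limma adjusted p 0.0279), and the call was lost under 6 of 22 alternatives. It was -0.76 without LR replicate 1 (adjusted p 0.131) and -1.81 without LR replicate 3 (adjusted p 1.67e-05). The LR and DTEP values overlapped (log2 change -0.23, limma adjusted p 0.707). Without LR replicate 3 that change was -0.90 (adjusted p 0.0268).

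The dimer partners went opposite ways. ARNT (Entrez 405, chr1:150809713-150876599), the general partner that AHR shares with the hypoxia-inducible factors, had 48.3, 52.1 and 51.2 normalised read counts in Control and 46.5, 52.6 and 63.4 in DTP. It had 88.0, 107 and 173 in DTEP and 164, 169 and 158 in LR. Control and DTP overlapped, both late groups lay above them, and DTEP replicate 3 was at the level of the LR libraries. ARNT rose from Control to LR by 1.67 on the log2 scale (SE 0.21, limma adjusted p 2.07e-05), and its LR mean was 3.23 times the Control mean. From DTP to DTEP it rose by 1.11 (SE 0.21, limma adjusted p 0.000446), or by 0.84 without DTEP replicate 3 (adjusted p 0.000207). The change from DTEP to LR was 0.47 (limma adjusted p 0.130), or 0.75 without DTEP replicate 3 (adjusted p 0.00132).

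ARNT2 (Entrez 9915, chr15:80404382-80597933), a paralog of ARNT with a more restricted expression, had 12.4, 12.7 and 12.4 normalised read counts in Control and 3.34, 3.46 and 3.51 in DTP. In DTEP it had 0.239, 0.0824 and 0.0561, which are 5, 2 and 1 reads, and in LR 0.127, 0 and 0, which are 3, 0 and 0 reads. The Control, DTP and DTEP libraries were fully separated, and DTEP and LR overlapped. ARNT2 fell from DTP to DTEP (log2 change -1.98, SE 0.13, limma adjusted p 9.24e-08) and from Control to LR (-3.70, SE 0.13, adjusted p 7.64e-10). It entered the tests only through Control and DTP, where it was high, so that a difference from DTEP and LR was built in. By pooled reads Control was 259.9 times LR, with an exact 95% interval for counting error of 88.6 to 1263. A library without a read allowed a level of up to 3 reads, or 0.124 to 0.173 normalised read counts, so the absence of ARNT2 was not shown.

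Per kilobase of transcript, ARNT and AHR began at like levels and drew apart. The ratio of ARNT to AHR, each divided by the length of its canonical transcript, lay between 0.805 and 0.884 in the Control libraries and between 2.50 and 3.04 in the DTP libraries. It lay between 9.20 and 18.0 in DTEP and between 7.19 and 36.5 in LR. The lowest LR ratio was that of replicate 3, the library with the most AHR. ARNT2 per kilobase was 1.90 to 1.95 in Control, below both AHR and ARNT in every library.

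AHRR (Entrez 57491, chr5:321714-438285), which competes with AHR for ARNT and for the XRE, had 40.1, 35.1 and 35.9 normalised read counts in Control and 52.5, 50.3 and 54.0 in DTP. It had 7.80, 5.11 and 2.75 in DTEP and 2.45, 2.05 and 2.33 in LR. No groups overlapped, DTP was highest, and DTEP replicate 3 was closest to the LR libraries. AHRR fell from DTP to DTEP by 3.18 on the log2 scale (SE 0.25, limma adjusted p 4.72e-07) and from Control to LR by 3.54 (SE 0.25, adjusted p 1.92e-07), and both changes passed under all 22 alternatives. Without DTEP replicate 3 the change from DTP to DTEP was -2.86 (limma adjusted p 1.04e-07). The Control mean was 16.3 times the LR mean. From DTEP to LR the change was -0.84 (limma adjusted p 0.0572), or -1.16 without DTEP replicate 3 (adjusted p 0.000385). The ratio of AHR to AHRR per kilobase lay between 1.80 and 2.21 in Control and between 0.350 and 0.564 in DTP, the only libraries with less AHR than AHRR. It lay between 1.47 and 4.20 in DTEP and between 2.20 and 11.3 in LR.

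TIPARP (Entrez 25976, chr3:156674590-156706770), a mono-ADP-ribosyltransferase that modifies AHR, varied least. It had 56.6, 61.4 and 54.9 normalised read counts in Control and 35.0, 43.0 and 55.1 in DTP. It had 35.7, 35.1 and 31.5 in DTEP and 40.6, 27.8 and 40.6 in LR. The DTP replicates spanned the gap between Control and the late groups, and DTEP and LR overlapped. TIPARP fell from Control to DTEP by 0.74 on the log2 scale (SE 0.19, limma adjusted p 0.00476) and from Control to LR by 0.67 (SE 0.19, adjusted p 0.00786), and the Control mean was 1.69 and 1.59 times those of DTEP and LR. Unlike CYP1A1, it was not higher in any DTP library than in the highest Control library.

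Overlapping genes limit some of these values, because the default settings of the counter ignore strand. TIPARP shares 1124 bases with the antisense TIPARP-AS1, which had 0.0460 to 0.418 normalised read counts. AHR overlaps LOC101927609 by 669 bases, and a PDCD6-AHRR readthrough transcript spans the whole of AHRR. ARNT2 overlaps ARNT2-AS1, ARNT2-AS3 and LOC124903537, and small pseudogenes lie within AHRR and ARNT. Apart from TIPARP-AS1, none of these is a row of the table, so reads they might add or take away could not be assessed. MIR5572 inside ARNT2 had no read in any library.

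CYP1A1 (Entrez 1543), the most inducible of the AHR target enzymes, had 7.36, 6.41 and 7.13 normalised read counts in Control and 504, 463 and 503 in DTP. It had 79.8, 56.8 and 1.18 in DTEP and 0.0845, 0.111 and 0.484 in LR, which are 2, 2 and 10 reads. The DTP libraries lay far above all others, replicates 1 and 2 of DTEP stood between DTP and Control, and DTEP replicate 3 lay below Control. Every LR library lay below every library of the other groups. The DTP mean was 70.3 times the Control mean, which is the value that chose the pathway. The DTEP mean was 6.59 times that of Control, or 9.80 times without replicate 3. By pooled reads Control was 31.2 times LR (exact 95% interval for counting error 18.4 to 57.5) and DTP was 2179 times LR (1299 to 3987).

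The DTEP and LR groups were not used to choose CYP1A1, but the Control and DTP libraries that chose it also entered the fit and its estimate of the spread. From DTEP to LR, CYP1A1 fell by 4.16 on the log2 scale in that fit (SE 0.97, limma adjusted p 0.0312), with all 3 LR libraries below all 3 DTEP libraries. CYP1A1 passed the filter on low values through Control, DTP and DTEP, and no LR library reached a value of 1. A difference from LR was therefore built in. The call was lost under 11 of 22 alternatives. The adjusted p was 0.0555 without a filter on low values, 0.301 with only the 6 libraries compared, from 0.0520 to 0.0538 when any Control library or DTP replicate 1 or 2 was left out, 0.107 and 0.133 without DTEP replicate 1 or 2 (log2 changes -3.21 and -3.45), and 0.0825 and 0.0911 without LR replicate 1 or 2. Without DTEP replicate 3 the log2 change was -5.81 (limma adjusted p 3.84e-08).

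CYP1A2 (Entrez 1544), the close relative known mainly from liver, had 0.506, 0.326 and 0.186 normalised read counts in Control and 22.0, 19.1 and 21.4 in DTP. It had 7.94, 9.27 and 0.112 in DTEP and 0, 0.0553 and 0.339 in LR. Like CYP1A1, it was highest in DTP, intermediate in replicates 1 and 2 of DTEP, and as low in DTEP replicate 3 as in Control or LR. CYP1A2 fell from DTP to DTEP by 2.22 on the log2 scale (SE 0.62, limma adjusted p 0.00696) and changed by -4.28 from DTP to LR (SE 0.62, adjusted p 5.7e-05). It entered the tests only through the groups where it was high, so that a difference from the low groups was built in. Without any filter the adjusted p from DTP to DTEP was 0.0129, and without DTEP replicate 3 the change was -1.18 (adjusted p 9.04e-05). The change from DTP to DTEP was lost by edgeR (adjusted p 0.0607) and DESeq2 (adjusted p 0.136). Between DTEP and Control its change was 1.81 (limma adjusted p 0.0247), with adjusted p up to 0.114 over the alternatives, at that value without DTEP replicate 2, and it was 2.85 without DTEP replicate 3. From DTEP to LR it changed by -2.06 (limma adjusted p 0.0578), or by -3.09 without DTEP replicate 3 (adjusted p 2.26e-06). LR and Control did not differ detectably (log2 change -0.25, limma adjusted p 0.743), and both were close to the limit of 3 reads.

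The reads of the neighbours kept a steady ratio in DTP, where CYP1A1 had 22.9, 24.3 and 23.5 times the reads of CYP1A2. In Control the ratio was 14.5, 19.7 and 38.3, on 4 to 11 CYP1A2 reads per library. In DTEP it was 10.04, 6.12 and 10.5, the last on 2 reads of CYP1A2. The DTEP ratios lay below those of every Control and DTP library, but those of DTEP replicate 3 and of Control rest on few reads. In LR the ratio was 2 in replicate 2 and 1.43 in replicate 3, on 1 and 7 CYP1A2 reads, and replicate 1 had 0.

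CYP1B1 (Entrez 1545, chr2:38067509-38076151), which acts on estradiol and is the main CYP1 enzyme of many tumours, was lowest where CYP1A1 was highest. It had 16.0, 14.1 and 11.4 normalised read counts in Control and 4.23, 3.801 and 8.06 in DTP. It had 67.1, 100.5 and 65.6 in DTEP and 62.3, 41.1 and 58.4 in LR. None of the 4 groups overlapped, DTP was lowest, and DTEP replicate 3 lay with the other DTEP libraries. CYP1B1 rose from DTP to DTEP by 3.66 on the log2 scale (SE 0.27, limma adjusted p 2.79e-07), and the DTEP mean was 14.5 times the DTP mean. It was also higher in LR than in Control by 1.88 (SE 0.27, limma adjusted p 7.09e-05), a ratio of means of 3.89. From DTEP to LR its change of -0.51 missed the threshold (limma adjusted p 0.190). CYP1B1 passed in the other 4 comparisons tested under all 22 alternatives.

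**Figure D3:**
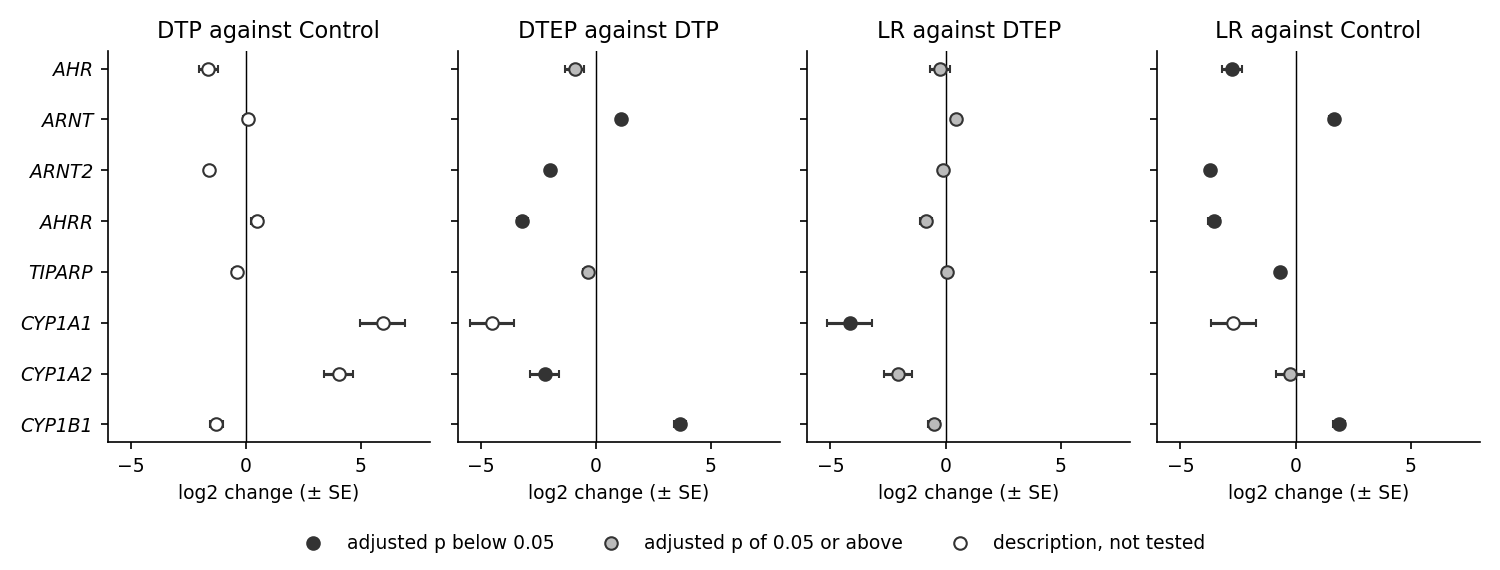
Log2 change of each gene with its SE (limma, n = 3 against 3) in 4 comparisons. Filled points passed an adjusted p of 0.05, grey points did not, and open points are descriptions without a test, among them CYP1A1 at 5.95 and CYP1B1 at -1.27 in DTP against Control.

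The make-up of CYP1 transcripts changed accordingly when levels were set per kilobase. CYP1A1 was 46.7%, 46.7% and 54.9% of the summed CYP1 level in Control and 96.1%, 96.3% and 95.8% in DTP. In DTEP it was 66.6%, 49.5% and 3.47%, and in LR 0.271%, 0.536% and 1.62%. CYP1B1 made up 97.4% to 99.7% in LR and 96.3% in DTEP replicate 3, but 0.394% to 0.766% in DTP. DTEP replicate 3 thus had the make-up of the LR libraries, through its low CYP1A1 and not through more CYP1B1.

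**Figure D4:**
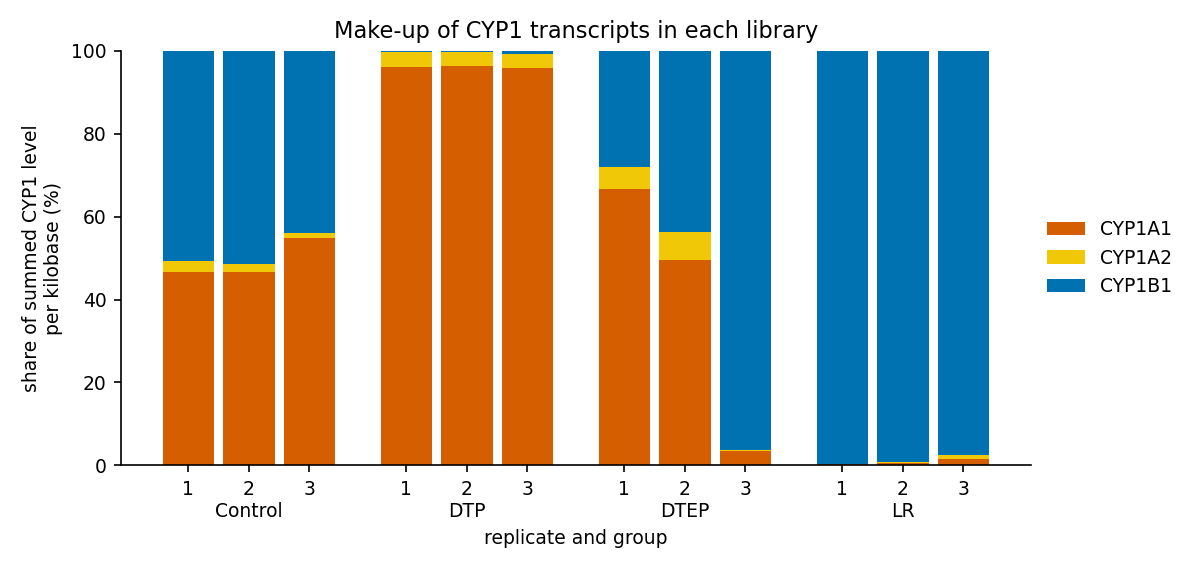
Share of the summed CYP1 level per kilobase taken by each CYP1 gene, in percent, for each of the 12 libraries. CYP1A1 fills 95.8% to 96.3% of the DTP bars and CYP1B1 fills 97.4% to 99.7% of the LR bars.

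Among all 36 P450 genes of families 1 to 4 in the table, CYP1A1 had the highest mean level per kilobase in DTP and DTEP and CYP1B1 in LR. In Control, CYP2J2, CYP4B1 and CYP2R1 had the highest mean levels per kilobase, and CYP1A1 and CYP1B1 were 6th and 7th with 4.87% and 4.83% of the summed P450 level. In DTP, CYP1A1 was 1st with 68.2% of the sum, followed by CYP2S1 with 6.72% and CYP4B1 with 5.19%. In DTEP, CYP1A1 with 31.04% and CYP1B1 with 26.2% led over CYP2R1, although the CYP1A1 mean rests on replicates 1 and 2. In LR, CYP1B1 was 1st with 34.4%, before CYP2R1 and CYP2E1, and CYP1A1 was 10th with 0.290%. Fewer P450 genes were expressed late, since 19 of 36 had over 3 reads in all Control libraries and 19 in all DTP libraries, but 12 in those of DTEP and 8 in those of LR. None of the 5 enzymes listed for lapatinib metabolism passed the filter on low values. CYP3A4, CYP3A5 and CYP3A7 had at most 0.0576 normalised read counts in any library, which is below the limit of 3 reads. CYP2C8 had up to 0.678, its highest values being those of DTP, and CYP2C19 had up to 0.326.

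The genes whose profiles over the 12 libraries were most like that of CYP1A1 were PGM5, ALPP, PSG4, UCA1 and CBLN2. Likeness was the root mean square difference between profiles of log2(normalised read count + 1), each centred on its own mean, and it was 0.81, 1.06, 1.12, 1.31 and 1.32 for these 5. CYP1A2 was 13th of all genes tested, at 1.62. PGM5, a phosphoglucomutase relative found at cell junctions, had 3.63, 4.08 and 4.05 normalised read counts in Control, 133, 153 and 153 in DTP, 47.7, 15.2 and 1.52 in DTEP and 0.0845, 0.0553 and 1.16 in LR. It shared with CYP1A1 the high DTP level, the low DTEP replicate 3 and the LR level below Control. ALPP and PSG4 have near-identical paralogs, so their counts are uncertain.

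**Figure D5:**
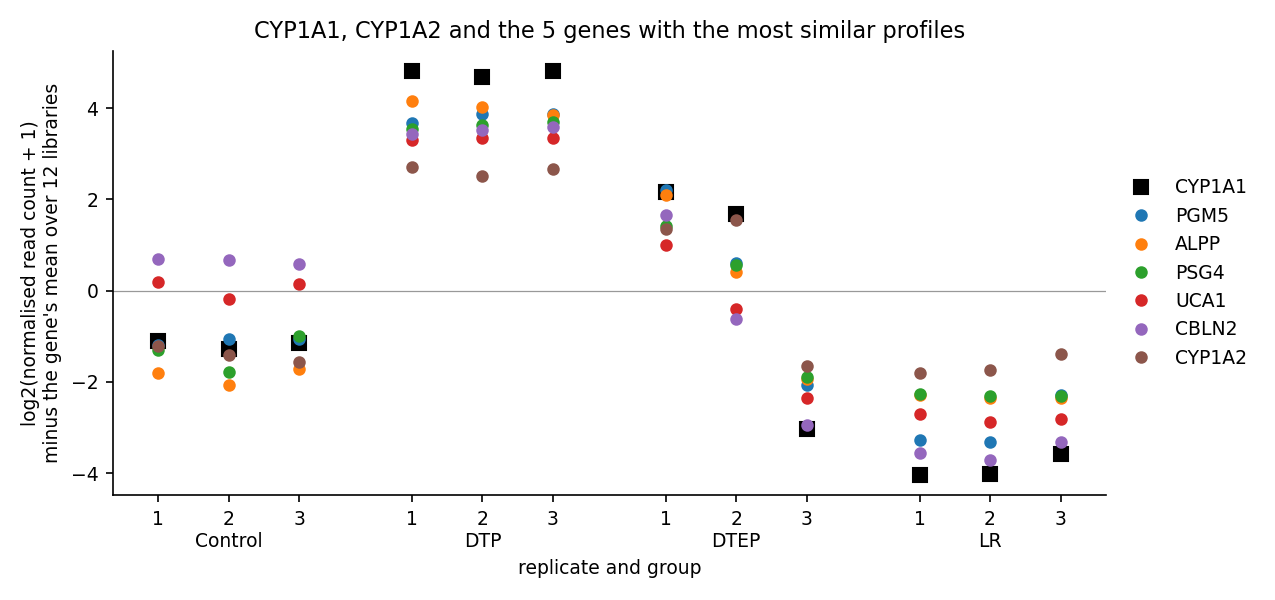
Profiles of CYP1A1, CYP1A2 and the 5 genes most like CYP1A1 over the 12 libraries, as log2(normalised read count + 1) minus the mean of each gene. In all 7 genes DTEP replicate 3 lies below replicates 1 and 2 of its group.

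For the other members the likest profiles were those of VBP1, ADGRB2 and CAAP1 for CYP1B1 (0.27, 0.30 and 0.30), ENPP4, PLCB1 and FIGN for AHR (0.25, 0.26 and 0.31), TUSC8, KIF7 and COL6A1 for AHRR (0.14, 0.15 and 0.16) and RAB5A, LRRC8D and TES for TIPARP (0.11, 0.12 and 0.13). ADGRB2, an adhesion receptor, ranged over the Control libraries from 9.41 to 11.1 normalised read counts and over DTP from 3.85 to 4.12. It ranged from 39.6 to 57.2 over DTEP and from 31.1 to 59.02 over LR, with DTP lowest as for CYP1B1. COL6A1, a collagen chain, ranged from 11.9 to 12.1 over Control and from 16.7 to 19.0 over DTP, with at most 1.96 in DTEP and no reads in LR, the order of AHRR.

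Around these 8 genes, 8 lists of related genes were examined, with 68 of 70 listed genes in the table, 47 tested and 13 with 3 reads or fewer in every library. A call needed both an adjusted p under 0.05 and a log2 change beyond 2. In DTP against Control 6 of the 47 were called, where 4.92% of all genes were, and in DTEP against DTP 12, against 15.2%. In LR against Control 9 were called, against 12.8%. In LR against DTEP 0 were called by limma, against 0.681% of all genes, with 1 gene past an unadjusted p of 0.05 and that log2 change. edgeR called 4 there, against 4.21% of all genes, DESeq2 called 7, against 5.08%, and limma without DTEP replicate 3 called 4, against 2.22%. The lists surround a gene picked from DTP against Control, so their values in that contrast are no independent support.

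Other AHR target genes were few in this line. Of 14, 6 were tested and 5 had 3 reads or fewer in every library. In DTP against Control 3 of the 6 were higher past the adjusted p and none lower, against 54.0% of all genes in either direction. NEDD9, a scaffold protein of focal adhesions, had 25.5, 26.3 and 24.9 normalised read counts in Control, 103, 109 and 128 in DTP, 21.4, 12.1 and 1.23 in DTEP and 0.887, 2.27 and 2.37 in LR. It rose in DTP by 2.10 on the log2 scale (SE 0.62, limma adjusted p 0.0129) and fell in DTEP by 3.71 (SE 0.62, adjusted p 0.000195), with a log2 change of -2.73 without DTEP replicate 3 and of -4.40 without DTEP replicate 1. CYP2S1, an extrahepatic P450, had 15.8, 16.8 and 16.5 in Control, 52.8, 48.5 and 43.99 in DTP, 3.01, 0.906 and 0.0561 in DTEP and 0.0422, 0 and 0 in LR. Its increase in DTP was 1.51 (SE 0.35, limma adjusted p 0.00355), lost with DESeq2 (adjusted p 0.118), and its log2 change from DTP to DTEP was -4.62 (SE 0.35, adjusted p 3.66e-07). Both genes were highest in DTP, and in both DTEP replicate 3 was the lowest DTEP library, as for CYP1A1. The same held for genes outside this list, such as COL6A1 and UCA1. UGT1A6, another AHR target, went the other way in DTP, with a mean of 1.65 normalised read counts against 2.46 in Control, and the libraries overlapped. SLC7A5, an amino acid transporter that also carries kynurenine, rose in DTP by 0.83 (limma adjusted p 0.0304) and lost that call when any 1 Control or DTP library was left out (adjusted p 0.0525 to 0.0940).

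NQO1, a quinone reductase that both AHR and NFE2L2 drive, followed CYP1A1 only in part. As for CYP1A1, its DTP libraries lay above Control and DTEP replicate 3 lay below the other DTEP libraries. Unlike CYP1A1, it was highest in DTEP replicates 1 and 2 and near Control in LR. It had 278, 272 and 275 normalised read counts in Control, 445, 438 and 409.9 in DTP, 1006 and 780.4 in replicates 1 and 2 of DTEP, 273 in DTEP replicate 3 and 268, 292 and 313 in LR. Its DTP change of 0.65 missed the threshold (limma adjusted p 0.139).

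The chaperone complex of AHR was expressed throughout, and its 6 genes moved between LR and Control by -1.18 for HSP90AA1 (limma adjusted p 0.00754) to 1.36 on the log2 scale for the ubiquitin ligase subunit CUL4B (adjusted p 0.000674), with 3 higher and 3 lower past the adjusted p, against 62.8% of all genes.

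Of the listed bHLH-PAS partners and relatives, 9 of the 12 in the table were tested. EPAS1, which encodes HIF-2α, had 27.0, 28.0 and 27.4 normalised read counts in Control, 49.4, 52.8 and 61.9 in DTP, 117, 128 and 149 in DTEP and 157, 153 and 145 in LR, and rose from Control to LR by 2.42 on the log2 scale (SE 0.13, limma adjusted p 1.79e-08). HIF1A had 344, 353 and 327 in Control, 68.0, 80.1 and 129 in DTP, 60.0, 106 and 108 in DTEP and 162, 171 and 99.4 in LR, a log2 change of -1.28 from Control to LR (SE 0.28, adjusted p 0.00180). EPAS1 thus had the direction of ARNT in the late groups and HIF1A that of AHR. SIM2, a relative that represses through ARNT, ranged from 37.1 to 40.7 over Control and from 30.7 to 40.2 over DTP, with at most 4.02 in DTEP and no reads in LR, and was called lower in DTEP than in DTP (log2 change -3.81, limma adjusted p 3.36e-06). ARNTL2 also fell from Control to LR (-3.14, limma adjusted p 2.59e-08), where it had at most 0.145 normalised read counts. ARNTL2 entered the tests only through Control and DTP, where it was high, so that a difference from LR was built in. CLOCK fell in DTP by 2.37 (adjusted p 5.49e-05) and rose in DTEP by 2.11, or by 1.88 to 1.95 without DTP replicate 1, DTEP replicate 2 or DTEP replicate 3. NPAS3 was called lower in DTEP than DTP (-2.14, limma adjusted p 1.84e-05), with -1.98 and -1.93 without DTEP replicate 1 or 2.

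The kynurenine pathway turns tryptophan into metabolites, some of which are AHR ligands, and 6 of its 10 listed genes were tested. TDO2, which opens the pathway, had at most 0.0466 normalised read counts in Control and no reads in DTP, then 5.21, 105 and 4.32 in DTEP and 7.14, 3.10 and 0.630 in LR. It rose from DTP to DTEP (log2 change 3.92, SE 0.91, limma adjusted p 0.00211), with replicate 2 far above the other DTEP libraries. TDO2 entered the tests only through DTEP and LR, where it was high, so that a difference from DTP was built in. The change of TDO2 was 2.52 without replicate 2, 4.57 without replicate 1 and 4.68 without replicate 3. IDO1 and IDO2, the alternative first enzymes, had no reads. KMO, which hydroxylates kynurenine, had 11.5, 11.0 and 12.4 in Control, 1.83, 1.73 and 2.48 in DTP, 77.7, 132 and 125 in DTEP and 149, 159 and 70.4 in LR. It fell in DTP by 2.08 (SE 0.29, limma adjusted p 0.000122) and rose in DTEP by 5.19 (SE 0.29, adjusted p 3.46e-08), lowest in DTP as CYP1B1 was. AADAT, a kynurenine aminotransferase, had 8.14, 8.91 and 8.25 in Control and 2.97, 2.62 and 2.82 in DTP (log2 change -1.31, limma adjusted p 1.37e-05), with 0.287, 0 and 0 in DTEP and no reads in LR. QPRT had the highest Control level of the list, 35.7 to 36.6.

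The coregulators of AHR were all tested, and 7 of 10 were lower in DTP than Control past the adjusted p and none higher, where 54.0% of all genes passed in either direction. From DTP to DTEP 7 of 10 were higher and 1 lower, where 68.2% of all genes passed. That count is near the share of all genes, so it is no result about the coregulators, and none is given without DTEP replicate 3. NCOA2, a coactivator with a PAS domain, had 126, 127 and 121 normalised read counts in Control, 7.41, 11.5 and 26.4 in DTP, 24.3, 89.8 and 238 in DTEP and 233, 245 and 209 in LR. It fell in DTP by 3.14 on the log2 scale (SE 0.62, limma adjusted p 0.00129), and rose in DTEP by 2.53 (adjusted p 0.00328), or by 1.75 without DTEP replicate 3 and by 3.37 without DTEP replicate 1. NRIP1 and RB1 were called higher in DTEP than DTP (2.63 and 2.34), and RB1 was called lower in DTP (-2.01), at the threshold and no longer past it under 6 of 22 alternatives, with -1.74 without DTP replicate 1. NCOA3, the most abundant of them in Control, fell from Control to LR by 2.37 (limma adjusted p 7.19e-07).

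Of 9 genes of estrogen metabolism, a process in which CYP1A1 and CYP1B1 take part, 7 were tested. HSD17B2, which oxidises estradiol to estrone, had at most 0.0987 normalised read counts in Control and DTP, then 4.35, 18.8 and 5.22 in DTEP and 1.61, 1.77 and 1.11 in LR (DTEP against DTP log2 change 3.08, SE 0.37, limma adjusted p 1.38e-05, or 2.48 without DTEP replicate 2). HSD17B2 entered the tests only through DTEP and LR, so that its difference from DTP was built in. STS, which frees estrone from its sulfate, had 117 to 128 in Control and 435 to 874 in LR (log2 change 2.27, limma adjusted p 4.46e-05, or 1.998 without LR replicate 1). HSD17B12 fell in DTP by 2.15, or by 1.96 without DTP replicate 1, and rose in DTEP by 2.51. The electron donors of P450 enzymes were present in all libraries. POR, the reductase that serves them, fell from Control to LR by 1.18 on the log2 scale (limma adjusted p 0.000362), CYB5A rose by 1.09 (adjusted p 0.00508) and CYB5R3 had 92.1 to 105 normalised read counts in Control and 98.8 to 119.9 in LR.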

How the data were processed

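Stranded mRNA libraries from BT474 cells were aligned to hg38 and assigned to RefSeq genes with Rsubread at default settings, as the study describes. The submitters' processing notes also name bcl2fastq and edgeR. The authors deposited 1 table of normalised signal per gene for 12 libraries, called normalised read counts here. Each of the 199680 nonzero values (100%) was a whole multiple of what 1 read was worth in its library (largest distance 1.22e-09), so reads were recovered. Group and replicate came from the sample titles. A single read was worth 0.0412 to 0.0576 normalised read counts, and intervals and limits cover counting error only.

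Log2(value + 1) was fitted over all 12 libraries with limma 3.58.1 (R 4.3.3, trend), for the 13794 genes with at least 1 in at least 3 libraries. A gene can pass this filter only through the groups where it is high, and a difference from its low groups is then built in. Because 1 is added, log2 changes understate those of low genes. Benjamini-Hochberg adjustment covered all genes of a comparison, and tests were two-sided. Calls of listed genes needed an adjusted p under 0.05 together with a log2 change beyond 2 in either direction. Lengths were those of GENCODE v44 canonical transcripts, found for all 36 P450 genes. Alternatives were other pseudocounts, filters and scalings, no trend, the 6 libraries compared, a replicate block, edgeR 4.0.16 and DESeq2 1.42.0 on the recovered reads, and each library left out. Steps were tested on simulated reads.

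The members and lists were chosen with earlier results of these data known. Named are the 8 members, called list genes (at most 4 each way per list and comparison), the gene of each list highest in Control, the genes most like 5 members, the 3 highest P450 genes per group and genes overlapping a member. Named after their values were seen were CUL4B, SLC7A5, UGT1A6, POR, CYB5A, IDO1, IDO2, CYP2C8, CYP3A4, CYP3A5 and CYP3A7. CYP1B1 and ARNT2 promoters were not used here, and some listed genes are not reported here.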

Additional observations from a re-analysis of the deposited data

How the results depend on the processing

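The counts of the 7 genes other than CYP1A1 past the adjusted p stayed within 1.5 times the reported value under each alternative in the 4 comparisons with Control or DTP. From DTEP to LR the count over all 8 genes, which was 1 (CYP1A1), was 2 with a pseudocount of 0.1, 0 without a filter, 0 with only the 6 libraries compared, 3 with edgeR and 3 with DESeq2, and 0 to 4 with single libraries left out, the 4 being without DTEP replicate 3. Listed pathway genes called from DTEP to LR, 0 as reported, were 3 and 1 with pseudocounts of 0.1 and 0.5, 4 with edgeR, 7 with DESeq2 and 0 to 4 with single libraries left out. Those called from Control to LR, 9 as reported, were 14 with edgeR. Directions reversed for 3 changes, none of which had been called. The AHR change from DTEP to LR was 0.15 with edgeR and 0.14 with DESeq2, and it ran from -0.90 (without LR replicate 3) over 0.0391 (without LR replicate 2) to 0.157 (without LR replicate 1). That of TIPARP ran from -0.0168 and -0.0161 (without LR replicates 1 and 3) to 0.25, and that of ARNT from Control to DTP, given without a test, from -0.0296 (without DTP replicate 3) to 0.19. Replicate numbers did not pair the libraries (r of deviations -0.44 to 0.36 for the same number, n = 18), and a block for the number left all counts as reported, with 7 genes past the adjusted p from Control to DTEP. With median-of-ratios factors the all-gene median shifted by -0.10 in DTEP against DTP and by less elsewhere. The causes of these changes were not tested. Depth limits CYP1A1, CYP1A2 and ARNT2 in LR, where 14, 8 and 3 reads were counted in all.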
